A study of Mus musculus with 8 samples.

Results

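The MYC and MAX network is a small family of basic helix-loop-helix leucine zipper transcription factors. Its members here are Myc, Max, Mxd1, Mxd3, Mxd4, Mxi1, Mnt and Mga, followed in MCE301 cells given sodium butyrate. MCE301 is a line of mouse colonic epithelial cells whose donor mice carried a transgene for the large T-antigen of simian virus 40 in a temperature-sensitive form, so every array comes from 1 transgenic line, and the culture temperature is not given in the labels. Sodium butyrate, an inhibitor of histone deacetylases that gut bacteria also make, was given at 2 mM for 0, 6, 12 or 24 h, with 2 arrays at each of the 4 times and 8 in all. The arrays are Affymetrix Mouse Expression Array 430A chips, read with total RNA. The members were found as the probe sets that the platform's annotation gives to 1 of these 8 symbols alone, which are 16 of the 22690 probe sets in the table, and each of the 8 genes has at least 1. Of the 16, 9 probe sets from 7 genes passed the filter on low values and were tested, and the other 7, with the only probe set of Mxd1 among them, are described by their signals. Whether the 2 arrays of a time stand for separate cultures is not stated in the labels, and p-values therefore measure only how far these arrays differ, possibly for technical reasons. Untreated cells were measured at 0 h alone, so the effects of butyrate and of time in culture cannot be told apart.

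MYC does not bind DNA alone: it pairs with MAX, and the pair binds the E-box CACGTG and recruits coactivators to genes for growth, ribosome assembly and metabolism. MXD1, MXI1, MXD3 and MXD4, together with MNT and MGA, compete for MAX and for the same sites, and MXD proteins and MNT bring the SIN3 corepressor with its histone deacetylases, while MGA is a subunit of a variant Polycomb complex. In the intestine, MYC is driven by Wnt signalling in the proliferating crypt, and its level falls as cells differentiate, while MXD proteins are typical of cells leaving the cycle.

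The network's own genes can carry its binding site. Promoter windows of 300 bases (250 before to 50 after a RefSeq start, build GRCm38.p6) were at hand for 7 of the 8 members, all but Myc. The palindrome CACGTG, which reads the same on both strands, occurred in 3 of these 7 (42.9%), against 8.1% of 27025 genes with a window. The 30 bases around each site are printed 5′ to 3′ on the gene's strand with the E-box in capitals, since they show where a MYC, MAX or MXD dimer could bind the promoters of Max, Mxd4 and Mnt.
Max, chr12:76962234-76962263, minus strand, E-box from base -3: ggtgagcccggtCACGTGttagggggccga
Mxd4, chr5:34187912-34187941, minus strand, E-box from base -219: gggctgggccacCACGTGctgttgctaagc
Mnt, chr11:74830789-74830818, plus strand, E-box from base -123: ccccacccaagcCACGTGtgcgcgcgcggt
Positions count from the start site, with negative numbers upstream of it. A match describes these letters and is not evidence of binding.

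The 8 arrays had medians of 140.1 to 152.8 and a common 2% trimmed mean of 500.2, and the arrays of 1 time correlated at 0.979 to 0.982 over all probe sets. Of 10 markers of colonic epithelium, 7 passed the filter, among them keratin genes and Epcam, while Vil1, Cdx1 and Lgals4 did not. The summed signal of the 10 was 42800 to 45910 at 0 h and 69600 to 86470 at 24 h. Between these times the mean of Krt20 went from 1377 to 15290, and that of Cdx2 from 484.8 to 284.3. Of 6 fibroblast and smooth muscle markers only Acta2 passed, and neither of the 2 endothelial markers nor any of the 3 secretory-cell markers with a probe set did. Of 4 immune markers only Cd68, a lysosomal protein, passed, and its mean signal was 424.4 at 0 h and 1080 at 24 h, which set most of the rise of the immune sum from 481.8 to 515.4 at 0 h to 1221 to 1232 at 24 h. Ptprc, Cd3e and Cd79a, which define immune cells, stayed below the filter. The part of these markers in the results was not tested.

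Against 0 h, Myc was lower and Mxi1 higher at all 3 later times, and Mga and Mnt were lower at the last. At 6 h, 3 of the 9 tested probe sets were called (33.3%), 2 higher and 1 lower, where 11.7% of all 12440 tested probe sets were called. At 12 h, 4 were called, 2 higher and 2 lower, beside 31.9% of all, and at 24 h, 5 were called, 2 higher and 3 lower, beside 44.1% of all. Both higher probe sets at each time were those of Mxi1. The lower ones were Myc at every time, Mga at 12 and 24 h and Mnt at 24 h. A call means an adjusted p under 0.05 by limma with Benjamini-Hochberg adjustment over all tested probe sets. Without array 2 of 0 h the count at 6 h was 0, without array 2 of 6 h it was 1, and with no filter on low values it was 1. The count at 24 h was 3 with no filter and without any 1 of array 1 of 0, 12 or 24 h and array 2 of 0 or 12 h.

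**Figure D1:**
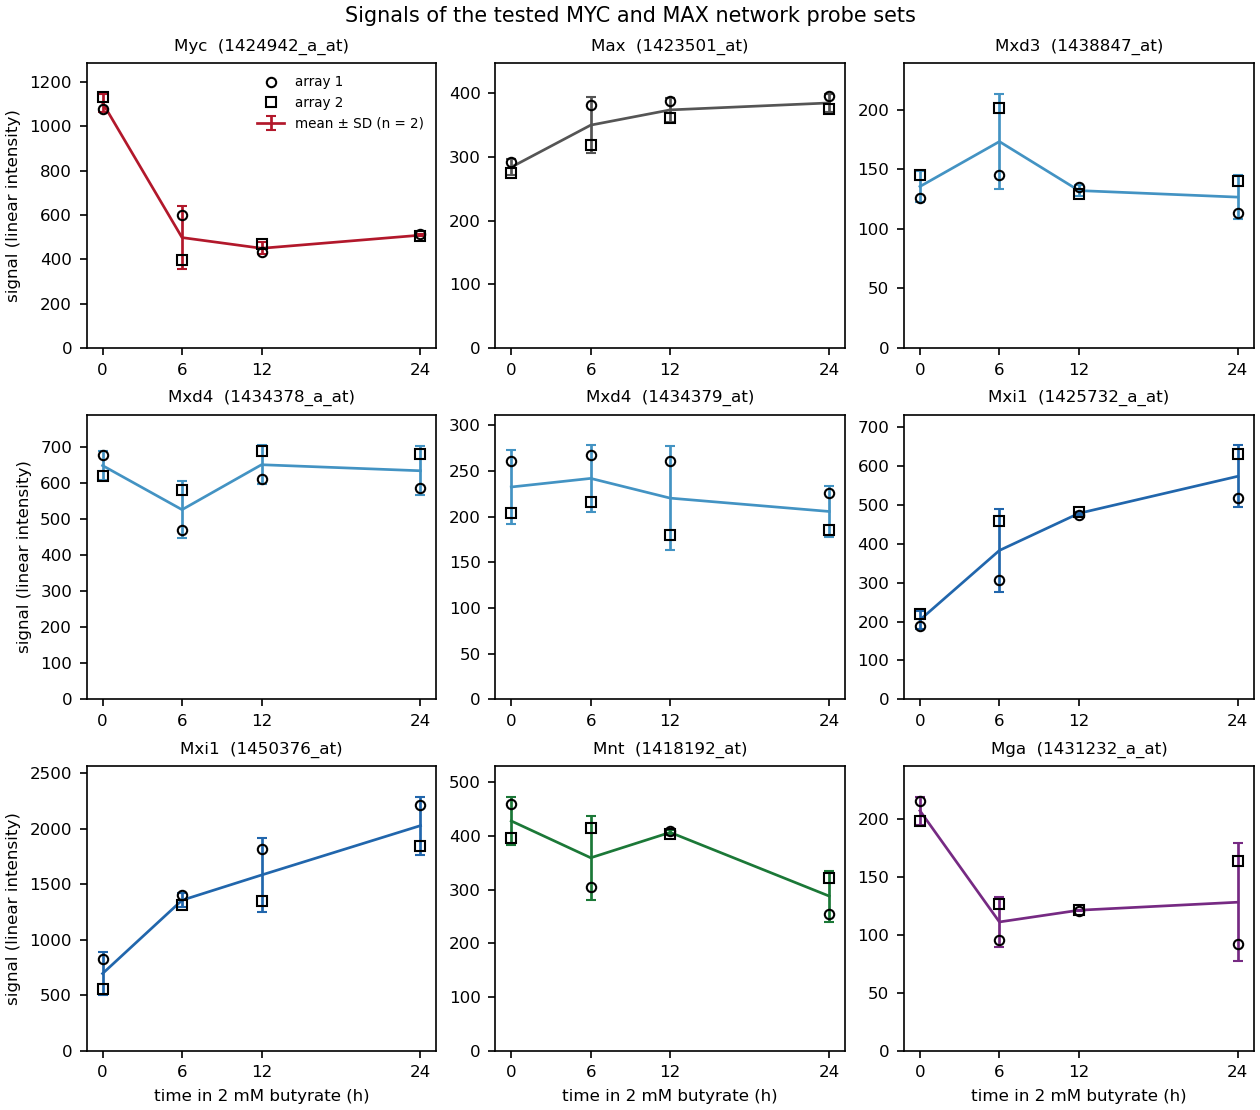
Signals (linear intensity) of the 9 tested probe sets against hours in 2 mM butyrate. Open circles and squares are arrays 1 and 2, and the line joins the means with their SD (n = 2). Myc falls from a mean of 1106 at 0 h to 498.2 at 6 h, and Mxi1 (1450376_at) climbs from 696.1 to 2029 at 24 h, while Mxd4 (1434378_a_at) stays between means of 526.8 and 651.6.

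Myc, the network's activator, has 1 probe set, 1424942_a_at. Its signals were 1076.7 and 1134.3 at 0 h, 599.5 and 396.8 at 6 h, 431.4 and 468.4 at 12 h, and 512.1 and 505.9 at 24 h. Both untreated arrays lay above all 6 later ones, the 6 h arrays overlapped those of 12 and 24 h, and both 24 h arrays lay above both 12 h arrays. On the scale log2(signal + 32), Myc fell by 1.13 at 6 h (SE 0.20, 2.19-fold, adjusted p = 0.0066), by 1.24 at 12 h (2.36-fold, adjusted p = 0.00135) and by 1.07 at 24 h (2.10-fold, adjusted p = 0.00166), all by limma. The change from 6 to 12 h was -0.11 (95% interval -0.55 to 0.32) and that from 12 to 24 h was 0.17 (-0.27 to 0.60), and neither was called. The calls at 12 and 24 h held in all 18 alternatives, and that at 6 h was lost without array 2 of 0 h (adjusted p = 0.0527).

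Max, the partner for which the other members compete, has 1 probe set, 1423501_at. Its signals were 292.6 and 275.2 at 0 h, 381.4 and 318.4 at 6 h, 387.2 and 360.5 at 12 h, and 394.9 and 374.5 at 24 h. Both untreated arrays were the lowest of the 8, so the groups did not overlap, but the differences were small. The log2 change against 0 h was 0.27 at 6 h (SE 0.16), 0.36 at 12 h and 0.40 at 24 h, where the 95% interval was 0.04 to 0.76. None was called by limma (adjusted p = 0.328, 0.116 and 0.068). At 24 h the adjusted p was 0.0348 with the replicate number as a block and 0.0465 after quantile normalization.

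Mxi1, an MXD-family repressor also called Mxd2, has 2 tested probe sets, and both rose. 1450376_at read 831.7 and 560.5 at 0 h, 1403.2 and 1310.9 at 6 h, 1820.8 and 1346.4 at 12 h, and 2214.7 and 1843.6 at 24 h. Every treated array lay above both untreated ones, and both 24 h arrays lay above all others. It rose by 0.96 on the log2 scale at 6 h (1.94-fold, adjusted p = 0.0232), 1.16 at 12 h (2.23-fold, adjusted p = 0.00361) and 1.52 at 24 h (SE 0.22, 2.87-fold, adjusted p = 0.00045) by limma. The dimmer 1425732_a_at read 188 and 220.2 at 0 h, 307.8 and 457.2 at 6 h, 474.4 and 481 at 12 h, and 516.3 and 629.3 at 24 h. Here the 4 times did not overlap at all, and the array means went up at each step. It rose by 0.79 at 6 h (adjusted p = 0.0329), 1.11 at 12 h (adjusted p = 0.00283) and 1.35 at 24 h (2.56-fold, adjusted p = 0.000526) by limma. The calls of both probe sets at 12 and 24 h held in every alternative that kept them. Those at 6 h were less steady: 1450376_at lost its call without array 2 of 0 h (adjusted p = 0.156), without array 1 of 6 h (0.09) and without array 2 of 6 h (0.0656), and 1425732_a_at without array 1 of 0 h (0.176), array 2 of 0 h (0.0964) or array 2 of 6 h (0.168), while with no filter they stood at 0.097 and 0.12. With only the arrays compared, 1425732_a_at stood at 0.0527.

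Mxi1 has 3 start sites in the RefSeq table, and none of their windows held CACGTG. They did hold the GC box, GGGCGG or its reverse complement CCGCCC, a motif that zinc finger factors of the Sp1 family bind. It occurred in 6 of the 7 members with a window, all but Max, and in 38.2% of the 27025 genes. Among the listed genes with a window, it occurred in 25 of 28 known to be activated by MYC and in 9 of 10 known to be repressed. It is thus not particular to the members. The Mxi1 boxes within 150 bases upstream of start sites 1 and 2 are shown because this is the member that rose most. Start sites are numbered in genome order, and the boxes of the remaining site, which also held the motif, are not shown. The box is in capitals, with build, strand and base numbering as above.
Mxi1 start site 1, chr19:53310368-53310397, plus strand, box from base -126: tggataggcaggGGGCGGgccctgcctccc
Mxi1 start site 2, chr19:53329359-53329388, plus strand, box from base -42: gggggggtggggGGGCGGgactacatttcc
Mxi1 start site 2, chr19:53329393-53329422, plus strand, box from base -8: gggcagcggaagGGGCGGgcggggcgggtc
A further box, from base -4, overlaps the last of these, and another in that window, left in lower case, begins downstream of the start site. The probe sets were not assigned to start sites here.

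Mxd4 and Mxd3 gave no call at any time, and Mxd1 could not be tested. Mxd4, a repressor of the same family, read 678.3 and 620.4 at 0 h, 471 and 582.7 at 6 h, 613.2 and 690 at 12 h, and 587.1 and 682.5 at 24 h with 1434378_a_at. The 6 h arrays were the lowest, and the other 3 times overlapped. Its log2 change at 24 h was -0.03 (95% interval -0.42 to 0.35). The second tested probe set of Mxd4, 1434379_at, lay between 180.2 and 267.7 on all 8 arrays and changed by -0.15 at 24 h (95% interval -0.62 to 0.32). The 2 did not follow each other over the arrays (r = -0.56). The other 2 Mxd4 probe sets, 1422574_at and 1422575_at, were below the filter, with means of at most 53.45 and 95.25.

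Mxd3, which is made mainly by cells in S phase, was dim with each of its 3 probe sets. The tested one, 1438847_at, read 126.1 and 144.9 at 0 h, 144.9 and 201.6 at 6 h, 135.3 and 128.9 at 12 h, and 113.4 and 139.8 at 24 h, and passed the filter through 3 arrays. The 0 h arrays overlapped those of 12 and 24 h and met those of 6 h at 144.9, and the 6 h arrays lay above those of 12 and 24 h. No change was called (log2 0.28 at 6 h, adjusted p = 0.377 by limma). Of the probe sets below the filter, 1422970_at read 79.1 and 57.5 at 0 h against 103.2 and 146.2 at 6 h, and 1448878_at read 73.8 and 52 against 124.7 and 144.6. In all 3 the 6 h mean was the highest of the 4 times, and in the 2 dim ones the 6 h arrays lay above both 0 h arrays. Mxd1, known for its rise in differentiating epithelium, lay at 9.4 and 13.9 at 0 h, 15.6 and 33.8 at 6 h, 37.6 and 65.7 at 12 h, and 17 and 29.2 at 24 h (1422002_at). These values are far below the median of all values, 144.7, and 5 of the 8 are below the pseudocount of 32. With no filter its log2 change at 12 h was 0.92 with an adjusted p of 0.0503 by limma.

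**Figure D2:**
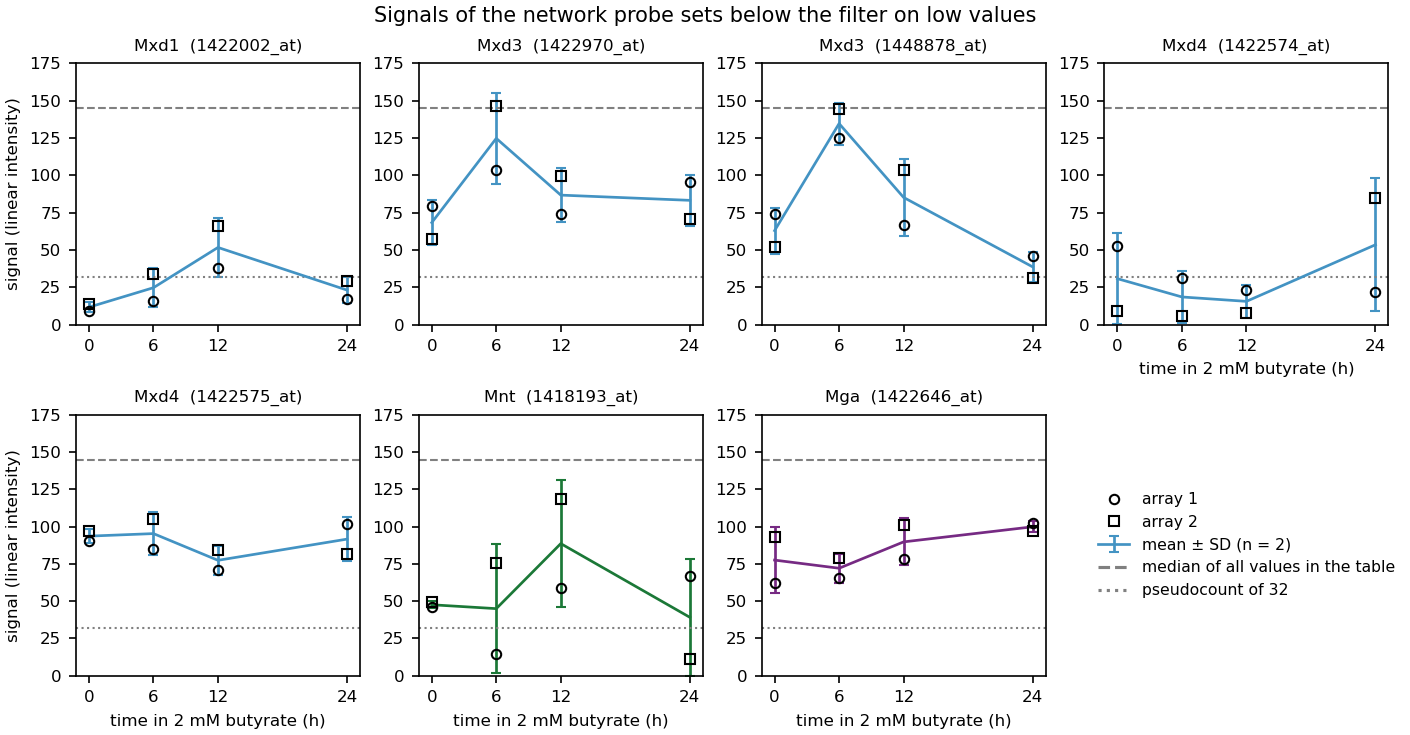
Signals (linear intensity) of the 7 probe sets below the filter on low values, against hours in 2 mM butyrate, with arrays 1 and 2 as open circles and squares and the mean with its SD (n = 2) as a line. The dashed line marks the median of all values, 144.7, and the dotted line the pseudocount of 32. The 2 Mxd3 probe sets have their highest means, 124.7 and 134.6, at 6 h, and Mxd1 has its highest, 51.65, at 12 h.

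Mnt, a repressor present in both dividing and resting cells, read 459.6 and 395.4 at 0 h, 303.9 and 414 at 6 h, 409.4 and 402.9 at 12 h, and 254.3 and 321.2 at 24 h with 1418192_at. The 0 h arrays overlapped those of 6 and 12 h and lay above both arrays of 24 h. Mnt fell by 0.53 at 24 h (SE 0.19, 1.44-fold, adjusted p = 0.0468 by limma), while the changes of -0.24 at 6 h and -0.07 at 12 h were not called. The 24 h call lies close to the threshold. It was lost without array 1 of 0 h (adjusted p = 0.215), array 2 of 0 h (0.079), array 1 of 24 h (0.245) or either 12 h array (0.0619), with no filter (0.114) and after quantile normalization (0.052). The other probe set, 1418193_at, was below the filter on all arrays, with means of 39.2 to 88.55.

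Mga, the largest of the family and able to bind T-box sites as well as E-boxes, read 215.5 and 198.2 at 0 h, 95.6 and 126.4 at 6 h, 120.7 and 121.5 at 12 h, and 92.2 and 163.9 at 24 h with 1431232_a_at. Both untreated arrays were above all later ones. This probe set passed the filter on 3 arrays, both of 0 h and 1 of 24 h, so it entered the test mainly through the time at which it was highest. It fell by 0.64 at 12 h (adjusted p = 0.0488) and by 0.61 at 24 h (SE 0.22, 1.53-fold, adjusted p = 0.0443) by limma. At 6 h the change was -0.75 with an adjusted p of 0.054, and of 0.0311 with the replicate number as a block. The 12 h call was lost without any 1 of the 0 h and 12 h arrays (adjusted p = 0.124 to 0.182), and the 24 h call without array 1 of 24 h (log2 -0.28, adjusted p = 0.341), either 0 h array (0.168 and 0.108) or either 12 h array (0.0574). Other settings also ended these calls: at 12 h a pseudocount of 16 (0.0526), no filter (0.133), quantile normalization (0.0579), scaling to a common median (0.0513) and trended robust eBayes (0.0756), and at 24 h no filter (0.115), trended robust eBayes (0.0699) and a fit of only the arrays compared (0.0564). The dimmer Mga probe set, 1422646_at, stayed between 62 and 102.4 and did not follow the first (r = -0.17 over the 8 arrays).

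**Figure D3:**
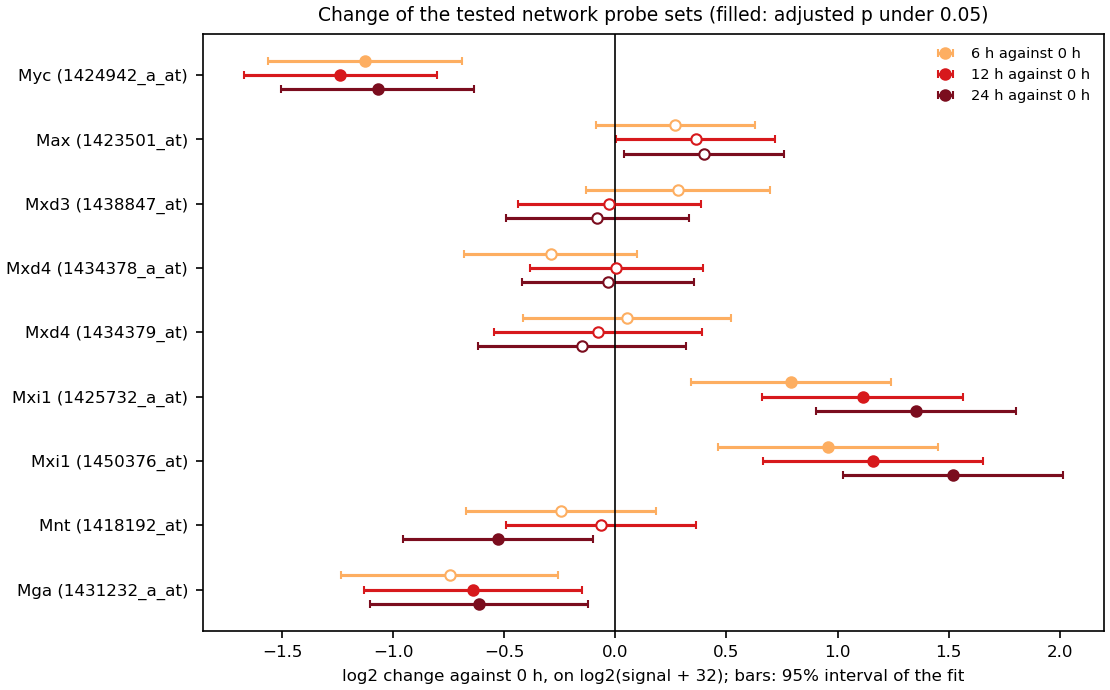
Log2 change against 0 h of the 9 tested probe sets at 6, 12 and 24 h, on the scale log2(signal + 32), with 95% intervals of the limma fit. Filled points have an adjusted p under 0.05. Myc lies near -1 at all 3 times, both Mxi1 probe sets lie further right with time, up to 1.35 and 1.52, and the Max intervals at 12 and 24 h stop just above 0 without a call.

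The steps between the later times gave no call among the members. Between 6 and 12 h, no member probe set was called by limma and 0 had an unadjusted p under 0.05, beside 2.42% of all probe sets called. Between 12 and 24 h, 0 were called and 1 had an unadjusted p under 0.05, beside 4.2% of all. That 1 was Mnt, with a log2 change of -0.46 (adjusted p = 0.241). Over the same interval the Mxi1 probe sets changed by 0.36 (95% interval -0.13 to 0.86) and 0.24 (-0.21 to 0.69).

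Genes whose signals ran most like those of a called member were sought among 7235 other genes by Pearson's r of log2(signal + 32) over the 8 arrays, which share the same 4 times. Nearest to Myc were Trmt10a, a tRNA methyltransferase gene (r = 0.991), Srek1, a splicing regulator (0.988), and Arid2, a subunit of a SWI/SNF remodeller (0.983). Nearest to Mxi1 (1450376_at) were Trim35 (0.995), the autophagy gene Atg12 (0.989) and the zinc transporter gene Slc30a4 (0.988). For Mnt the values were lower, with the chaperone gene Dnaja1 (0.947), the proteasome ATPase gene Psmc2 (0.941) and the phosphatase gene Ptprg (0.938), and for Mga they were 0.977 for Cyth2, 0.958 for Cc2d1a and 0.953 for Cd2bp2. Atg12 had mean signals of 589.4 at 0 h and 2171 at 24 h. With so many candidates and 8 arrays, high values are a description only.

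Genes around the network were counted in 7 lists, with 1 probe set a gene. The lists were chosen with earlier results of these data known, so their counts beside those of all genes are a description only. Across all 7340 genes tested, 23.5% were called higher and 22.6% lower at 24 h, with a median log2 change of 0.039. Among 4 tested relatives (Mycn, Mlx, Mlxip and Mlxipl), 1 was higher: Mlxipl, a glucose-responsive partner of MLX, from a mean of 43.55 ± 43.90 (SD, n = 2) at 0 h to 161.7 ± 16.8 at 24 h (adjusted p = 0.00442 by limma). Its log2 change of 1.49 was 0.86 without array 1 of 0 h. It passed the filter on 3 arrays only, all of 12 or 24 h, the times at which it was called higher. With the stricter filter it was not tested.

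Among 15 tested cofactors that bind MYC, 2 were higher (13.3%) and 7 lower (46.7%) at 24 h, with a median of -0.32. Without array 2 of 0 h, 4 were lower. The 2 that rose are both subunits of the PAF1 elongation complex: Ctr9, from 470.8 ± 64.9 to 1229 ± 12.2 (SD, n = 2; 2.52-fold), and Paf1, from 250.5 ± 4.38 to 533.6 ± 3.04 (2.00-fold). The 3 that fell most were Hcfc1, a host cell factor that MYC contacts, from 1488 ± 96.1 to 588 ± 104 (2.47-fold), Ruvbl1, an ATPase of the TIP60 and INO80 complexes, from 810.2 ± 47.1 to 325.6 ± 19.7, and Bptf, a nucleosome remodelling subunit, from 1906 ± 29.3 to 918.9 ± 18.2. The adjusted p of these 5 lay between 0.000289 and 0.000643 by limma.

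In the SIN3 corepressor that MXD proteins and MNT recruit, 2 of 12 tested genes were higher and 2 lower at 24 h, with a median of 0.085. Hdac1, a deacetylase of the complex, rose from 891.7 ± 21.5 to 1827 ± 25 (SD, n = 2; 2.01-fold, adjusted p = 0.00154 by limma), and Brms1, a further subunit, rose from 150.8 ± 40.2 to 255.2 ± 20.9 (adjusted p = 0.0161). Hdac2, the close relative of Hdac1, fell from 528 ± 27.8 to 383.5 ± 0.919 (1.35-fold, adjusted p = 0.0478), and Rbbp7, a histone-binding subunit, fell from 7083 ± 581 to 4921 ± 708 (1.44-fold, adjusted p = 0.0355). The call of Hdac1 held in every alternative. With no filter on low values, the adjusted p by limma was 0.0524 for Brms1, 0.0899 for Rbbp7 and 0.103 for Hdac2. Hdac2 also lost its call after quantile normalization (0.0605) and with only the arrays compared (0.0627). That of Brms1 was lost without array 1 of 0 h (0.138) or array 2 of 24 h (0.0872), that of Rbbp7 without array 1 of 0 h (0.0708), array 2 of 0 h (0.168) or array 2 of 24 h (0.209), and that of Hdac2 without any 1 of the 0, 12 and 24 h arrays (0.0666 to 0.183).

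Of 11 tested genes for MYC protein turnover, 2 were higher and 4 lower at 24 h. Cip2a, which shields MYC from the phosphatase PP2A, fell from 443.2 ± 157 to 77.8 ± 24.7 (SD, n = 2; 4.26-fold, adjusted p = 0.00015 by limma). Skp2, a ubiquitin ligase subunit that targets MYC, fell from 627.7 ± 41.6 to 186.5 ± 50.5 (3.06-fold), and Usp36, a nucleolar deubiquitinase of MYC, fell from 351.4 ± 34.3 to 164.3 ± 23.9 (1.96-fold). Fbxw7, the ligase subunit that recognises phosphorylated MYC, rose from 337.2 ± 89.3 to 547.6 ± 63.5 (1.59-fold, adjusted p = 0.0179), and Stub1, another ligase, from 2533 ± 301 to 4338 ± 921 (1.69-fold, adjusted p = 0.00955). With no filter on low values, the adjusted p of Fbxw7 was 0.0569 by limma. Both of these calls depended on single arrays: Fbxw7 lost its call without array 2 of 0 h (0.153) or array 1 of 24 h (0.106), and Stub1 without array 2 of 0 h (0.0735) or array 2 of 24 h (0.0847).

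Of 13 tested genes that act on transcription or mRNA stability of Myc, 8 were lower (61.5%) and 1 higher at 24 h, with a median of -0.57. The number lower was 5 without array 2 of 0 h and 5 without array 1 of 24 h. The 1 that rose was Zfp36, whose product binds AU-rich elements and speeds mRNA decay, from 251.4 ± 8.84 to 888 ± 170 (SD, n = 2; 3.22-fold, adjusted p = 0.00012 by limma). Among those that fell were E2f1, an S-phase transcription factor, from 392.7 ± 40.6 to 142.2 ± 82 (log2 -1.37, and -0.87 without array 2 of 24 h), the insulator protein gene Ctcf, from 626 ± 51.2 to 277.4 ± 40.1 (2.13-fold), and the pocket protein gene Rbl1, from 609.8 ± 56.1 to 277.7 ± 20.2 (2.07-fold).

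Genes that MYC is known to activate, mostly for ribosome assembly, translation, nucleotide supply and the cell cycle, were lower in growing numbers against 0 h. Of 35 tested, 3 were lower and 1 higher at 6 h (5.53% and 7.83% of all genes), 20 were lower at 12 h and 0 higher (16.6% of all genes lower), and 29 were lower at 24 h (82.9%) and 0 higher (22.6% of all genes lower). At an unadjusted p under 0.05 by limma, 0 were higher at 12 h and 0 at 24 h. The median log2 change was -0.2, -0.65 and -0.91 at the 3 times. With no filter on low values, 0 were called lower and 0 higher at 6 h. The 12 h count was 12 without array 1 of 0 h and 13 without array 1 of 12 h. At 6 h 5 were lower with the replicate number as a block, 1 without either 0 h array or without array 1 of 6 h, and the 1 higher was lost without any 1 array. The largest falls at 24 h were of Nop56, a nucleolar snoRNP protein gene, from 2992 ± 41.3 to 579.6 ± 107 (SD, n = 2; 4.98-fold), Srm, the spermidine synthase gene, from 1509 ± 174 to 396.4 ± 25.2 (3.59-fold), and Gnl3, which encodes nucleostemin, from 1799 ± 636 to 472 ± 0.849 (3.52-fold, adjusted p = 0.000145 by limma).

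Promoter windows were at hand for 28 of these activated genes, and 9 of the 28 (32.1%) held CACGTG, against 8.1% of all genes. The window nearest to each start is printed with its E-box in capitals, in build GRCm38.p6 and on the gene's strand, so that the site can be read beside the gene's change. At 24 h, 7 of the 9 with an E-box fell, and so did 15 of the 18 tested without one.
Mybbp1a, chr11:72441355-72441376, plus strand, from base 41: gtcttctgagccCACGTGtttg
Cdk4, chr10:127063512-127063541, plus strand, from base -11: aagggtgaagatCACGTGtccagaacgtcc
Wdr43, chr17:71616220-71616249, plus strand, from base 18: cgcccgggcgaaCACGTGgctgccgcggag
Hspd1, chr1:55088306-55088335, minus strand, from base -80: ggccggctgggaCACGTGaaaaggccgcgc
Nme1, chr11:93968273-93968302, minus strand, from base -18: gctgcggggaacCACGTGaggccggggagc
Eif4a1, chr11:69672595-69672624, minus strand, from base -189: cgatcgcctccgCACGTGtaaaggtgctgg
Ldha, chr7:46845744-46845773, plus strand, from base -48: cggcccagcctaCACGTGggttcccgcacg
Apex1, chr14:50924937-50924966, plus strand, from base 1: gagccctcgaatCACGTGaccacaccaatc
Eif4e, chr3:138527192-138527221, plus strand, from base -64: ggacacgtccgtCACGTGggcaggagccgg
The order is that of the change at 24 h except for Apex1 and Eif4e, which were not called. Mybbp1a, a nucleolar protein gene, fell from 4291 ± 524 to 1242 ± 85.2 (SD, n = 2; 3.39-fold), and Cdk4, the cyclin D kinase gene, from 3684 ± 281 to 1683 ± 167 (2.17-fold). Wdr43, a ribosome assembly gene, fell 1.85-fold, the mitochondrial chaperonin gene Hspd1 1.72-fold and the nucleoside diphosphate kinase gene Nme1 1.67-fold. Eif4a1, the translation initiation helicase gene, fell 1.51-fold and Ldha, for lactate dehydrogenase A, 1.44-fold. For 3 of these genes the call hung on single arrays: Eif4a1 lost its call without array 1 of 0 h (adjusted p = 0.0825), array 2 of 0 h (0.0872) or array 1 of 24 h (0.135), Ldha without array 2 of 0 h (0.148) or either 24 h array (0.118 and 0.0575), and Nme1 without array 1 of 24 h (0.0528). Eif4a1 and Ldha also lost their calls with no filter on low values (adjusted p = 0.0642 and 0.0641 by limma). Apex1, a DNA repair endonuclease gene, read 2848 ± 30.4 and 1740 ± 709 with an adjusted p of 0.0536, and Eif4e, the cap-binding protein gene, read 3454 ± 640 and 3903 ± 87.8 with an adjusted p of 0.424 by limma.

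Genes that MYC is known to repress were higher or gave no call. Of 12 tested, 3 were higher at 6 h (25%, where 7.83% of all genes were higher), 6 at 12 h (50%, where 17.2% were) and 5 at 24 h (41.7%, where 23.5% were), none was called lower at any of the 3 times, and the median at 24 h was 0.42. At an unadjusted p under 0.05 by limma, 2 were lower at 6 h and 0 at 12 and 24 h. With no filter on low values, 0 were called higher at 6 h. The 6 h count was 0 without array 2 of 0 h or array 2 of 6 h and 1 without array 1 of either time, and the 12 h count was 3 without array 1 of 12 h. Ndrg1, a stress and differentiation gene, rose from 759.7 ± 219 at 0 h to 7181 ± 25.2 at 24 h (SD, n = 2; log2 3.22, SE 0.20, 9.29-fold, adjusted p = 4.13e-06 by limma). Cdkn1c, the gene of the cyclin-dependent kinase inhibitor p57, rose from 56.3 ± 36.1 to 332.9 ± 79.3 (4.26-fold on the log2(signal + 32) scale) and passed the filter on 3 arrays only. Ndrg2, a relative of Ndrg1, rose from 115.9 ± 5.66 to 381.3 ± 14.7 (2.80-fold) and passed the filter on 6 arrays. Cebpa, with means of 53.2 ± 16.3 at 0 h and 139.8 ± 91.1 at 24 h, passed it on 4. Cdkn1c, Ndrg2 and Cebpa had no 0 h array above the filter's cut. They thus entered the test through later times alone, and all were called higher at 12 and 24 h. How far the filter set the counts of this list beside those of all genes was not tested. Of the 10 repressed genes with a promoter window, 1, Gadd45b, held CACGTG, and its mean was 1478 at 0 h and 1675 at 24 h, with no call. The signals of Acta2, Srek1, Ctr9, Nop56, Ndrg1, Cip2a, Cdk4 and Apex1 come from probe sets whose names mark that they may also match other transcripts.

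**Figure D4:**
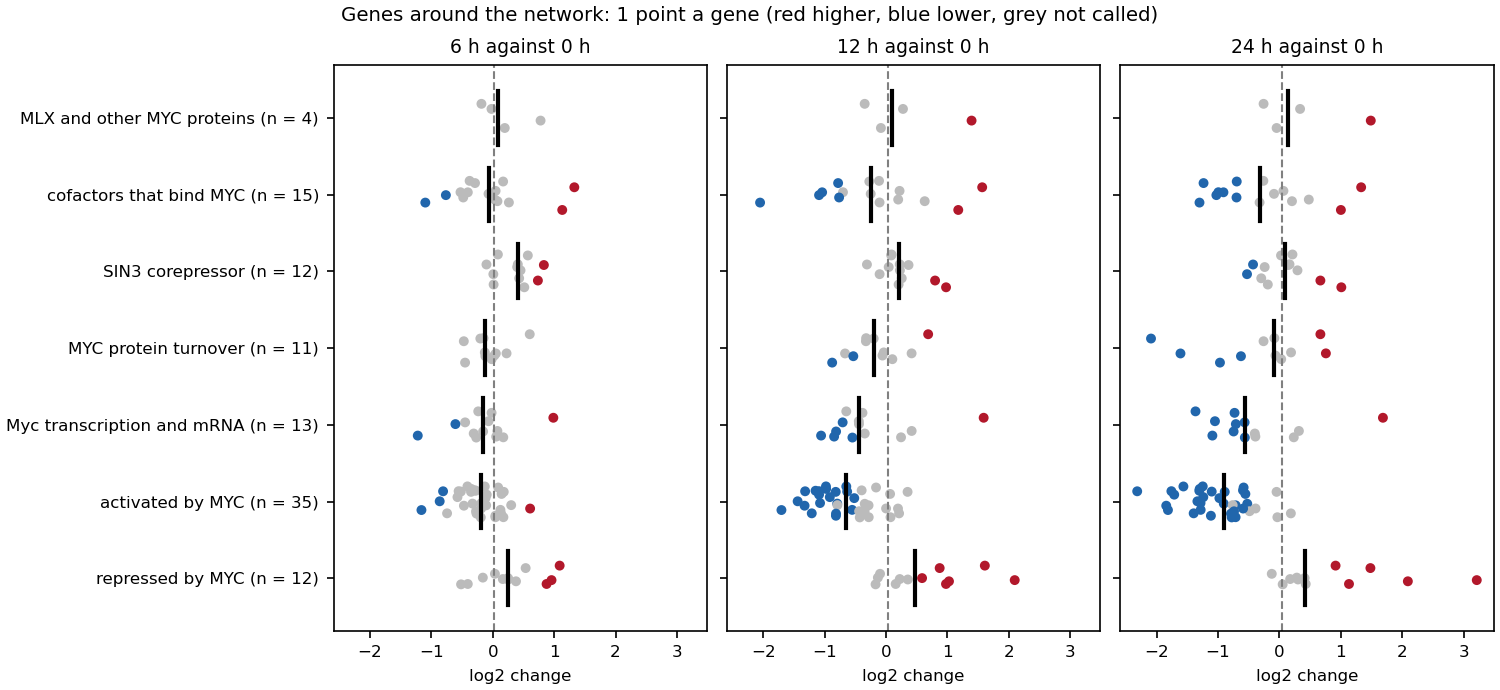
Log2 change at 6, 12 and 24 h against 0 h of the genes in the 7 lists, 1 point a gene, red for called higher, blue for called lower and grey for not called. Black bars are list medians and the dashed line is the median of all 7340 genes. The points of the list of genes activated by MYC move left from a median of -0.2 at 6 h to -0.91 at 24 h.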

How the data were processed

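Per the labels, the RNA carried phycoerythrin and was prepared for the arrays after the maker's protocol. The deposited table holds linear intensities, which the authors had scaled to a common trimmed mean, judging by the values. The summarising software and build are not given in the sources used here. Groups and replicate numbers came from the sample titles. The 64 control probe sets were left out, and a probe set was tested where at least 2 of 8 arrays exceeded 144.7, the median of all values, which left 12440. R 4.3.3 and limma 3.58.1 (lmFit, eBayes) were run on log2(signal + 32) with time as factor and all arrays in 1 fit, adjusting over all tested probe sets (Benjamini-Hochberg). The script was tested on simulated data. Low signals shrink fold changes on this scale, and the number of arrays limits the precision.

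Platform annotation gave 1 symbol to 20380 probe sets, several to 691 and none to 1555. For lists, a gene's brightest tested probe set stood for it. Up to 3 risen and 3 fallen genes a list were named by largest log2 change among calls at 24 h, and 3 genes most like each called member. Genes with an E-box and Gadd45b were named by their promoter match, and Cebpa by the times at which it passed the filter. Members and lists were chosen with earlier results of these data known.

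Same-numbered arrays deviated together, with r of 0.146 to 0.391 between the array differences of the 6 pairs of times, which suits pairing by number. This comes from the data, not from the labels. The reported fit has no block, and the fit with the replicate number as a block is an alternative, given beside a result where it changes a call. Alternatives were 2 other pseudocounts, 2 filters, 1 probe set a gene, 2 normalizations, trended robust eBayes, only the arrays compared, the block and leaving out each array.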

Additional observations from a re-analysis of the deposited data

How the results depend on the processing

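The alternatives were run for 28 member changes, which are all those against 0 h and that of Mnt from 12 to 24 h. Of these, 12 were called, and none of the 12 changed sign in 18 alternatives. The call was kept in 177 of these checks and lost in 21 that left out an array and 13 others. Leaving out 1 array gave 0 to 4 called member probe sets at 6 h, 3 to 4 at 12 h and 3 to 5 at 24 h, and 0 for both later steps. No filter gave 1 at 6 h and 3 at 24 h. Changes that turned sign were all uncalled. Mxd4 1434378_a_at gave -0.00184 at 12 h after scaling to a common median and 0.009346 at 24 h after quantile normalization. Leaving out 1 array gave -0.077 to 0.085 at 12 h and -0.14 to 0.070 at 24 h for that probe set, -0.11 to 0.21 at 6 h, -0.31 to 0.15 at 12 h and -0.31 to 0.0065 at 24 h for Mxd4 1434379_at, -0.11 to 0.053 at 12 h and -0.20 to 0.039 at 24 h for Mxd3 1438847_at, -0.17 to 0.036 at 12 h for Mnt, and -0.0016 to 0.38 at 24 h for Eif4e.

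For all probe sets (higher and lower), no filter gave 282 and 152 at 6 h, 1300 lower at 12 h, 8 and 4 from 6 to 12 h, and 22 and 98 from 12 to 24 h. The replicate block, which takes the pairing of arrays into the fit, gave 1247 and 982 at 6 h, 320 and 405 from 6 to 12 h, and 317 and 563 from 12 to 24 h. Beside the calls of Max at 24 h and Mga at 6 h it changed no member's call. One probe set a gene, where fewer are tested, gave 1281 lower at 12 h, and 1806 and 1724 at 24 h. From 6 to 12 h, only the arrays compared gave 50 and 23, and trended robust eBayes 234 lower. Leaving out 1 array gave 291 to 753 higher and 172 to 582 lower at 6 h, 1189 to 2057 and 1104 to 2023 at 12 h, 1973 to 2812 and 1959 to 2804 at 24 h, 21 to 117 and 15 to 119 from 6 to 12 h, and 28 to 168 and 118 to 374 from 12 to 24 h. The causes were not tested. With 2 arrays a group, no test for a single outlying array was possible, and signals below 32 carry little information.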
